A study of Mus musculus with 8 samples.

Results

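The IL-6 and IL-20 cytokine axis was followed across 10 genes in mouse ear epidermis: the ligands Il6, Lif and Il24, and the receptor subunits Il6ra, Il6st, Lifr, Osmr, Il20ra, Il20rb and Il22ra1. The genes were taken as a named list and matched by symbol. All 10 were found among the 51912 gene identifiers of the count data. Of these, 8 had enough counts to be tested, beside 16512 tested genes in all, and the ligands Il6 and Il24 did not. The samples were epidermal sheets from the ears of 8-week-old mice, with 4 distinct mice in each of 2 groups. Every mouse carried the A20F/F allele, in which both copies of the gene Tnfaip3 (protein A20) are flanked by loxP sites. Mice of the A20KIKO group also carried the Krt5-CreERT2 transgene, in which the promoter of the basal keratinocyte gene Krt5 drives a recombinase that tamoxifen activates. Mice of the A20WT group lacked it. Both groups received 1 mg tamoxifen into the peritoneum on 2 consecutive days and were killed 7 days after the first injection. RNA was sequenced with 1 library per mouse, and the comparison asks how the libraries labelled A20KIKO differ from those labelled A20WT.

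Cytokines of the IL-6 family share the signalling receptor chain gp130, encoded by Il6st. IL-6 first binds IL-6 receptor alpha (Il6ra), LIF signals through gp130 paired with the LIF receptor (Lifr), and oncostatin M signals through gp130 paired with its own receptor chain (Osmr). The IL-20 family ligands IL-19, IL-20 and IL-24 signal through a pair of chains encoded by Il20ra and Il20rb, and IL-20 and IL-24 also use Il22ra1 with Il20rb. IL-22 uses Il22ra1 with the shared chain Il10rb. Both families signal mainly through JAK kinases and STAT3, and in skin the IL-20 family acts chiefly on keratinocytes, where it drives thickening of the epidermis and antimicrobial genes. A20 is an inhibitor of NF-kB signalling.

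Libraries held 40451075 to 89624373 summed counts, and levels are given as CPM, counts scaled to library size with TMM factors. Tnfaip3, the targeted gene, was higher in the libraries labelled A20KIKO than in those labelled A20WT (74.0 ± 17.3 against 16.5 ± 2.65 CPM, SD, n = 4 each; log2 difference 2.16, adjusted p = 8.36e-05, edgeR quasi-likelihood test). A count over the whole gene does not measure the deleted part, so this value does not check the labels, and the groups are called by their labels throughout. The defining markers of the labelled tissue were present: the 6 basal keratinocyte markers summed to 19980 to 25940 CPM in A20KIKO-labelled and 24060 to 34380 CPM in A20WT-labelled libraries. In the library of A20KIKO mouse 4 the neutrophil markers summed to 3137 CPM, against 192.1 to 222.3 CPM in A20KIKO mice 1 to 3 and 200.2 to 262.9 CPM in the A20WT libraries. Of the 3137 CPM, S100a8 and S100a9 gave 2846, and both are also in the keratinocyte response list described below. The other 9 markers summed to 291.1 CPM in that library and 174.0 to 245.7 CPM in the other 7, where Il1r2 gave most of the sum. Without Il1r2 they summed to 169.1 CPM in that library and 33.2 to 44.7 CPM in the other 7. The neutrophil marker Ly6g was at 0 in every library except that of A20KIKO mouse 4 (1.61 CPM). In the library of A20WT mouse 1, genes with at least 8 kb of exon sat lower relative to those under 2 kb (median log2 deviations differed by -0.61, against -0.09 to 0.41 in the other 7 libraries). For several results that changed when these libraries were left out, the value without them is given.

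Of the 8 members tested, 1 rose (Lif) and 1 fell (Il20ra) at an adjusted p under 0.05, while 3.49% of all tested genes passed this threshold in either direction, 2.43% upward and 1.06% downward. At an unadjusted p under 0.05 stood 6 of the 8, beside 15.4% of all tested genes. The members were chosen with earlier results of these data known, so no excess over the shares of all genes is read from these counts. Lif was the only member above the A20WT range in every A20KIKO library, against 5.78% of all tested genes, and Il6ra and Il20ra were below it in every one, against 4.79%. In either direction, groups did not overlap for 10.6% of all tested genes. The median log2 difference of the 8 tested members was -0.06, beside -0.01 for all tested genes. In whole tissue sheets, a change in the number of cells of a type and a change in RNA per cell cannot be told apart. This holds for every lower and every higher value below.

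**Figure D1:**
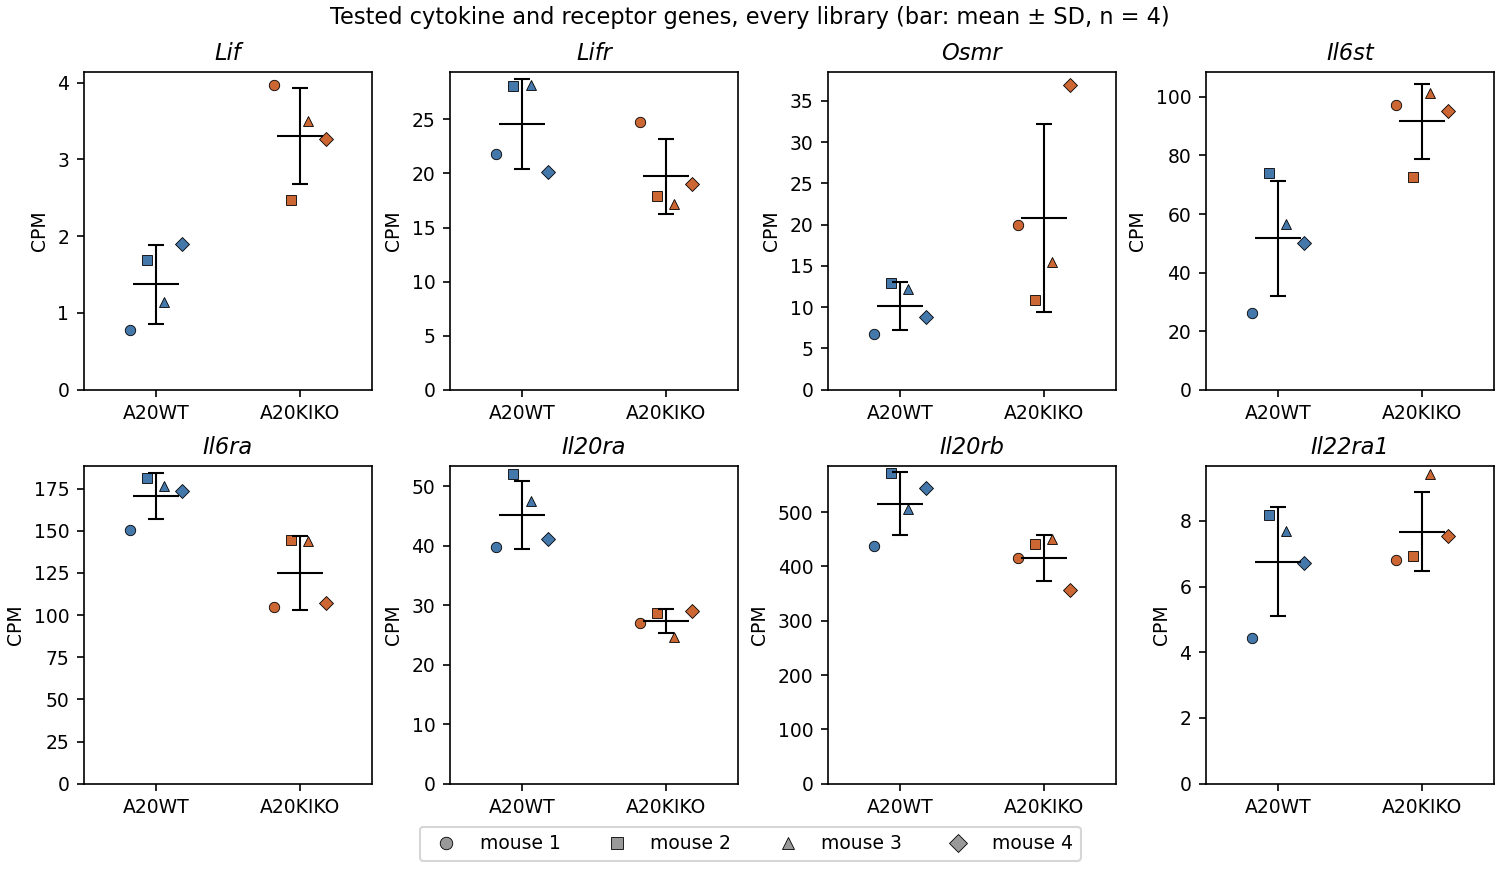
Level of each of the 8 tested members in each library, in CPM on linear axes from 0, with 1 point per mouse and bars for the mean and SD of each group. Lif stands at 2.47 to 3.98 CPM in the A20KIKO-labelled libraries and 0.772 to 1.89 CPM in the others, and Il20ra at 24.6 to 28.9 against 39.7 to 52.0 CPM.

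Lif encodes leukemia inhibitory factor, a secreted ligand of the gp130 and LIF receptor pair. The gene lies at chr11:4257557-4272514 on the plus strand (GRCm38), and the gene of oncostatin M, Osm, ends 16.5 kb before it. Lif stood at 3.98, 2.47, 3.50 and 3.27 CPM in A20KIKO mice 1 to 4 and at 0.772, 1.69, 1.137 and 1.89 CPM in A20WT mice 1 to 4. The lowest A20KIKO library lay above the highest A20WT library, so the groups did not overlap. Group means were 3.31 ± 0.627 and 1.37 ± 0.514 CPM (SD, n = 4 each). Lif rose by 1.27 on the log2 scale (SE 0.30, 95% interval 0.63 to 1.92), or 2.42-fold, with an adjusted p of 0.0351 (edgeR). These levels rest on 143 to 340 counts per A20KIKO library and 67 to 122 per A20WT library. The call was lost when any of 5 mice was left out, with adjusted p of 0.128 without A20KIKO mouse 1, 0.0833 without A20KIKO mouse 3, 0.0644 without A20KIKO mouse 4, 0.0555 without A20WT mouse 1 and 0.118 without A20WT mouse 3. The log2 difference stayed between 1.07 and 1.47 in these and the other omissions of a single mouse.

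The promoters of Lif, Il6 and Il20ra are shown because Lif and Il20ra are the members that passed the test, and Il6 is the ligand that gives the family its name. Each line gives the 250 bases before the RefSeq transcription start (GRCm38.p6), 5′ to 3′ on the gene's own strand, which is plus for all of them. Capitals mark a match to a kB decamer (the NF-kB motif) or to the AP-1 motif TGANTCA.
Lif (chr11:4257318-4257567): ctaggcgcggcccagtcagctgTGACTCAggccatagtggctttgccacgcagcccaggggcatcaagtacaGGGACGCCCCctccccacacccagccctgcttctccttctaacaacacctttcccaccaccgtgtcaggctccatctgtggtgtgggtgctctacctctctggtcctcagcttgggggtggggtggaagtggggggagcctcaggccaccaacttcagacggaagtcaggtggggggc
Il6 (chr5:30012864-30013113): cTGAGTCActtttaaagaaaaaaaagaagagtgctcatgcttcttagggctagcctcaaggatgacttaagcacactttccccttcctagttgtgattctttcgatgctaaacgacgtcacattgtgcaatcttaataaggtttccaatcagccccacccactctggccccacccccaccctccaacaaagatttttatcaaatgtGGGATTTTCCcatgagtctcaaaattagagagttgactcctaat
Il20ra (chr10:19712337-19712586): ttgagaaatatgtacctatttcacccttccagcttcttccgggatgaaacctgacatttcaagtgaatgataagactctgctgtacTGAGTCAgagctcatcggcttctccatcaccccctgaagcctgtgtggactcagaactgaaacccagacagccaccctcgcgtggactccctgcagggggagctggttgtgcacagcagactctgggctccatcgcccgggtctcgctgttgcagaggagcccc
The Lif window held TGACTCA 228 bases and the kB decamer GGGACGCCCC 178 bases upstream of the start. The Il6 window held TGAGTCA 249 bases and the kB decamer GGGATTTTCC 44 bases upstream. The Il20ra window held TGAGTCA 164 bases upstream and no kB match. Across the members, 9 of 10 genes matched a promoter entry and gave 10 windows of 300 bases (250 before and 50 after the start), searched on both strands. The AP-1 motif was found in 5 of these 10 windows and in 7.81% of all 32851 promoters, and a kB decamer in 3 of 10 and in 8.46%. The other 2 motifs searched, the STAT motif TTCNNNGAA (8.30% of all promoters) and the interferon-stimulated response element, ISRE (3.44%), were in none of the 10. These are matches of letters, and binding was not measured.

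The other ligands of the list, Il6 and Il24, were near the limit of detection and were not tested in the reported fit. Without the count filter, edgeR gave Il6 an adjusted p of 0.566 and Il24 one of 0.595. Interleukin 6 (Il6, chr5:30013114-30019981) had 15, 5, 1 and 9 counts in A20KIKO mice 1 to 4 and 3, 0, 0 and 5 counts in A20WT mice 1 to 4. The sums were 30 and 8 counts, and both groups include libraries with at most 3 counts. A count of 0 allows up to 3 counts, or 0.0541 CPM in the library of A20WT mouse 2 and 0.0348 CPM in that of A20WT mouse 3, counting error only. Interleukin 24 (Il24, chr1:130882074-130887454) had 9, 3, 0 and 150 counts in A20KIKO mice 1 to 4 and 16, 0, 1 and 5 in A20WT mice 1 to 4. Of the 162 A20KIKO counts, 150 came from mouse 4, where Il24 stood at 1.71 CPM against at most 0.105 CPM in the other A20KIKO mice. Outside that library the groups overlapped.

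Il24 has the related ligands Il20 and Il19 as neighbours on chromosome 1, with gaps of 19.5 kb from Il24 to Il20 and 21.2 kb from Il20 to Il19. Il19, which encodes interleukin 19, had 33, 1, 1 and 2086 counts in A20KIKO mice 1 to 4 and 23, 0, 30 and 53 in A20WT mice 1 to 4. Its log2 difference was 4.07 (SE 2.25, adjusted p = 0.478, edgeR) and turned to -1.19 without A20KIKO mouse 4. Il20, which encodes interleukin 20, had 27, 3, 21 and 44 counts against 0, 0, 1 and 11. The Il20 groups overlapped through A20KIKO mouse 2 and A20WT mouse 4 alone, and the log2 difference was 2.94 (SE 1.04, adjusted p = 0.178, edgeR). Without A20WT mouse 4 it was 5.84 with an adjusted p of 0.0274, a fitted value that depends on counts of 0 and 1 in the remaining A20WT libraries.

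Interleukin 22 (Il22) and oncostatin M (Osm), which act through Il22ra1 and Osmr, showed the same mouse standing apart. Il22 had 2, 4, 0 and 394 counts in A20KIKO mice 1 to 4 and 16, 0, 10 and 7 in A20WT mice 1 to 4. Osm had 23, 1, 17 and 393 counts against 0, 0, 11 and 6, and neither gene passed the filter for the test. A20KIKO mouse 4 is also the library with 3137 CPM of neutrophil markers, while its 9 T cell markers summed to 143.4 CPM, within the 113.5 to 146.5 CPM of the A20WT libraries. Among them Cd4 (2.72 CPM) and Cd8a (2.21 CPM) stood above every A20WT library (at most 0.997 and 1.23 CPM). So they did in A20KIKO mice 1 and 3, with Cd4 at 1.25 and 1.03 CPM and Cd8a at 1.32 and 1.59 CPM. In mouse 4 Cd2 and Fcer1g were also above the A20WT range, and Cd3e, Cd3g, Cd3d, Trdc and Thy1 were inside it. The leukocyte markers of A20KIKO mouse 4 summed to 231.6 CPM, against 118.2 to 157.3 CPM in the A20WT libraries. The part of these cells in the ligand counts was not tested.

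**Figure D2:**
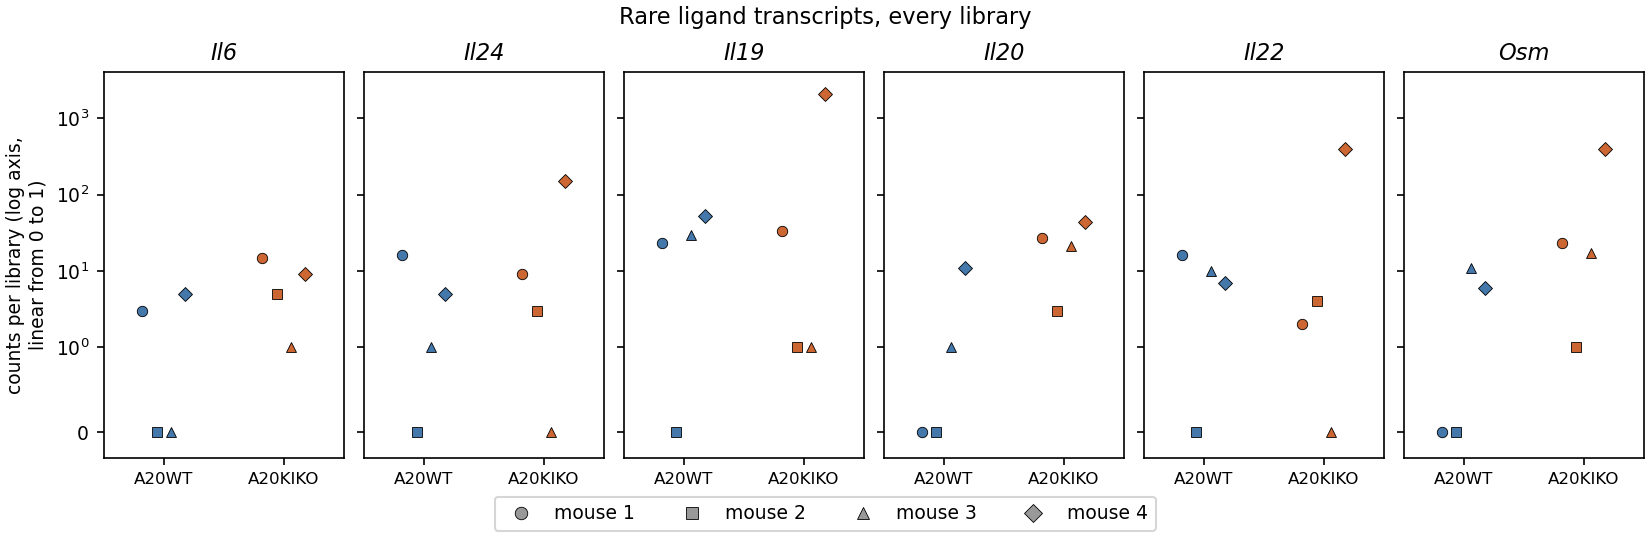
Counts of 6 low-abundance ligands of both families in each library, on a log axis that is linear from 0 to 1, with 1 point per mouse. The library of A20KIKO mouse 4 holds 150 counts of Il24, 2086 of Il19, 394 of Il22 and 393 of Osm, each above the other 7 libraries.

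Among the IL-20 family receptor chains, Il20ra fell and its partner Il20rb did not pass the test. Il20ra (chr10:19712570-19760053, plus strand) encodes the chain that pairs with Il20rb to bind IL-19, IL-20 and IL-24. It stood at 27.0, 28.7, 24.6 and 28.9 CPM in A20KIKO mice 1 to 4 and at 39.7, 52.0, 47.5 and 41.1 CPM in A20WT mice 1 to 4. All A20KIKO libraries were below all A20WT libraries, and the A20WT mice were the more spread of the groups. Means were 27.3 ± 1.98 and 45.1 ± 5.71 CPM (SD, n = 4 each). Il20ra fell by 0.72 on the log2 scale (SE 0.12, 95% interval -0.99 to -0.45), or 1.65-fold, with an adjusted p of 0.00628 (edgeR). The call held in all 20 alternatives run, with log2 differences of -0.81 to -0.65 and a highest adjusted p of 0.0289.

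Il20rb (chr9:100457719-100486788, minus strand), the chain shared by both IL-20 receptor pairs, was the most abundant member. It stood at 416, 441, 450 and 357 CPM in A20KIKO mice 1 to 4 and at 438, 572, 506 and 545 CPM in A20WT mice 1 to 4. The groups overlapped through A20WT mouse 1. The log2 difference was -0.31 (SE 0.12) with an adjusted p of 0.248 (edgeR), on means of 416 ± 42.0 and 515 ± 58.3 CPM.

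Il22ra1 (chr4:135728172-135752140, plus strand) encodes the chain used by IL-22 and, with Il20rb, by IL-20 and IL-24. It stood at 6.79, 6.94, 9.41 and 7.54 CPM in A20KIKO mice 1 to 4 and at 4.45, 8.18, 7.69 and 6.72 CPM in A20WT mice 1 to 4. The 2 ranges overlapped, and the lowest mouse was A20WT mouse 1 and the highest A20KIKO mouse 3. The log2 difference was 0.18 (SE 0.20, adjusted p = 0.754, edgeR), and 0.03 without A20WT mouse 1 (adjusted p = 0.959, edgeR).

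The IL-6 family chains split by sign. Il6ra (chr3:89864059-89913196, minus strand), which encodes the ligand-binding receptor for IL-6, stood at 105, 144, 144 and 107 CPM in A20KIKO mice 1 to 4. In A20WT mice 1 to 4 it stood at 150, 181, 176 and 174 CPM. Every A20KIKO library was below every A20WT library, although A20KIKO mice 2 and 3 came close to A20WT mouse 1. The log2 difference was -0.45 (SE 0.13), 1.36-fold lower, with an adjusted p of 0.103 (edgeR), which misses the threshold. With the length trend removed it was -0.47 with an adjusted p of 0.0472, a fit in which 4.39% of tested genes passed. An antisense gene, Gm42809, overlaps an Il6ra exon, and the library kit kept no strand. Gm42809 held 285 counts over all libraries and Il6ra 82136, and the part of antisense reads in the Il6ra value was not tested.

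Il6st (chr13:112464070-112510086, plus strand) encodes gp130, the chain common to the IL-6 family. It stood at 97.3, 72.7, 101 and 95.1 CPM in A20KIKO mice 1 to 4 and at 26.3, 73.9, 56.7 and 49.9 CPM in A20WT mice 1 to 4. The groups overlapped only because A20WT mouse 2 stood above A20KIKO mouse 2, and A20WT mouse 1 was the lowest. Means were 91.6 ± 12.9 and 51.7 ± 19.7 CPM, and the log2 difference was 0.83 (SE 0.26, 95% interval 0.25 to 1.40, adjusted p = 0.134, edgeR). Il6st is a long transcript (11099 bases of exon), and A20WT mouse 1 is the library in which long genes sat low. Without A20WT mouse 1 the log2 difference was 0.61 (adjusted p = 0.0624), and without that mouse and A20KIKO mouse 4 it was 0.59 (adjusted p = 0.103). With the length trend removed it was 0.85 (SE 0.19) with an adjusted p of 0.0301, and DESeq2 gave an adjusted p of 0.0192, where 6.25% of genes passed.

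Osmr (chr15:6813577-6874969, minus strand), the oncostatin M receptor chain, stood at 19.996, 10.8, 15.4 and 37.0 CPM in A20KIKO mice 1 to 4. In A20WT mice 1 to 4 it stood at 6.79, 12.96, 12.2 and 8.77 CPM. A20KIKO mouse 4 was the highest, and A20KIKO mouse 2 lay inside the A20WT range. The log2 difference was 1.03 (SE 0.37, adjusted p = 0.201, edgeR), 0.60 without A20KIKO mouse 4 (adjusted p = 0.328) and 0.45 without that mouse and A20WT mouse 1. Without A20KIKO mouse 2 its adjusted p was 0.0471, and DESeq2 gave 0.0213.

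Lifr (chr15:7090614-7197489, plus strand), the LIF receptor chain, starts 215.6 kb after the end of Osmr on the same chromosome. It stood at 24.8, 17.9, 17.2 and 19.0 CPM in A20KIKO mice 1 to 4 and at 21.8, 28.1, 28.2 and 20.2 CPM in A20WT mice 1 to 4. The groups overlapped, and the log2 difference was -0.32 (SE 0.16, adjusted p = 0.377, edgeR).

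Because several chains work in pairs, 7 pairs were compared as ratios of counts per kb of exon within each library. The pairs were chosen after the levels had been seen. With 4 mice against 4 the smallest two-sided p of an exact permutation test is 0.0286, and p-values were adjusted over the 7 pairs. The ratio of Il6st to Il6ra, the signalling chain over the IL-6 binding chain, was 0.722, 0.392, 0.549 and 0.689 in A20KIKO mice 1 to 4. In A20WT mice 1 to 4 it was 0.136, 0.317, 0.250 and 0.224. The groups did not overlap, and the ratio was 2.58-fold higher in the A20KIKO-labelled libraries (exact permutation p = 0.0286, adjusted 0.0501). On the log2 scale this is a difference of 1.37, and 1.13 to 1.55 when single mice were left out.

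The ratio of Osmr to Lifr, the chains that pair with gp130 for oncostatin M and LIF, was 0.718, 0.537, 0.7995 and 1.73 in A20KIKO mice 1 to 4. In A20WT mice 1 to 4 it was 0.276, 0.410, 0.385 and 0.387. The groups did not overlap even at the nearest mice, and the ratio was 2.37-fold higher (exact permutation p = 0.0286, adjusted 0.0501). The log2 difference was 1.24, and 0.91 to 1.47 when single mice were left out. The 2 genes have nearly equal exon lengths, 12113 and 10776 bases. Il6st over Lifr was 2.34-fold higher and Il22ra1 over Il20rb 1.43-fold higher, each with the same exact permutation p. None of these 4 pairs fell under 0.05 after adjustment. Each stood at the smallest p the test can give. With 4 of 7 pairs at that floor the adjusted value cannot be lower than 0.0501, so this miss decides nothing.

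Il20ra over Il20rb was 1.33-fold lower, with overlapping groups (exact permutation p = 0.0571, adjusted 0.0799). Il6st over Osmr differed by -0.02 on the log2 scale (exact permutation p = 0.971) and Il22ra1 over Il10rb by -0.07 (exact permutation p = 0.857).

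**Figure D3:**
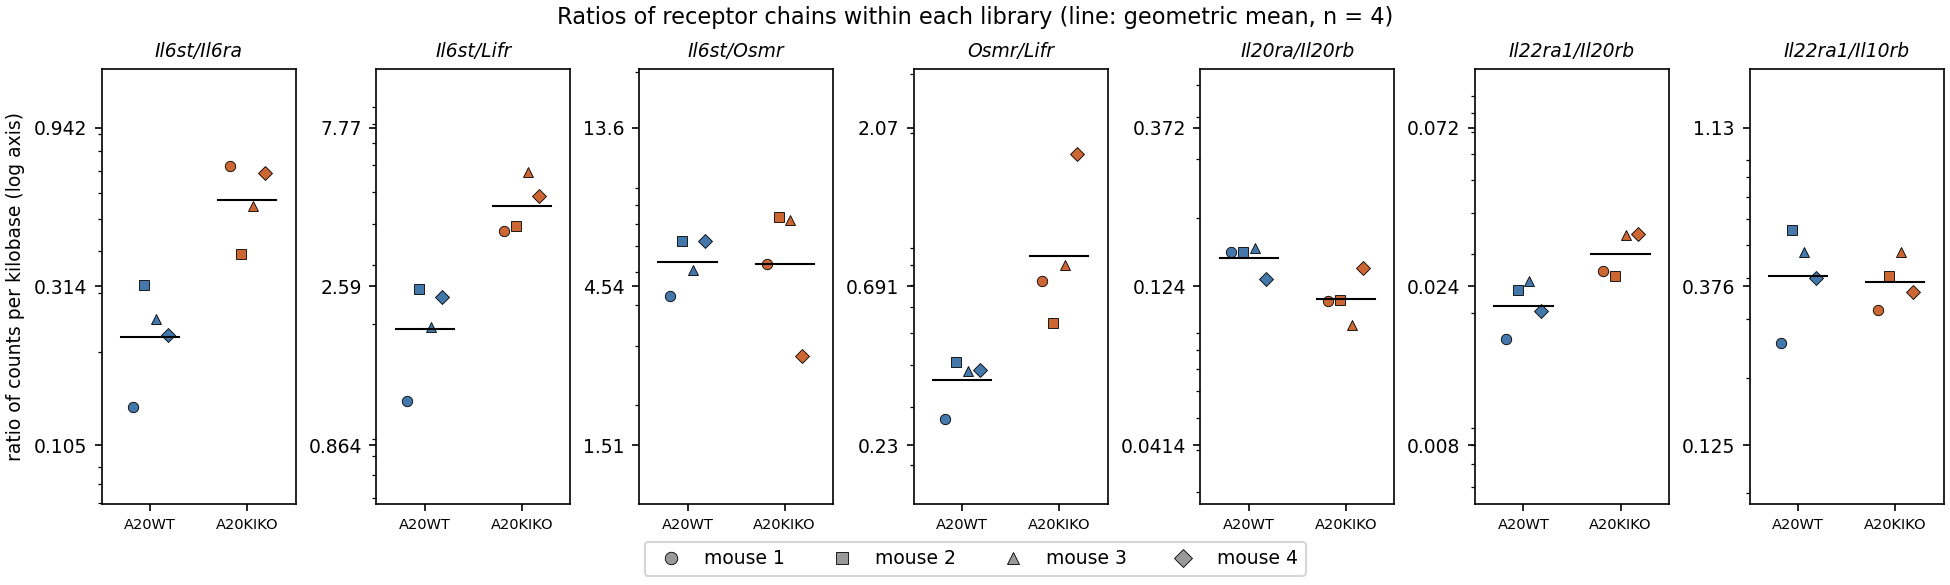
Ratio of receptor chains within each library, each in counts per kb of exon, on log axes with 1 point per mouse and a line at each group's geometric mean. Il6st over Il6ra runs from 0.392 to 0.722 in the A20KIKO-labelled libraries and from 0.136 to 0.317 in the A20WT-labelled ones, while Il6st over Osmr overlaps.

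Per kb of exon, the order of levels in the A20WT-labelled libraries began with Il20rb at 122.5 ± 13.9 CPM per kb (SD, n = 4). Il6ra (19.7 ± 1.59) and Il20ra (18.6 ± 2.35) followed and overlapped. Il6st came next at 4.66 ± 1.78 and overlapped Il22ra1 at 2.63 ± 0.645, which overlapped Lifr at 2.28 ± 0.387. Osmr at 0.840 ± 0.239 and Lif at 0.316 ± 0.118 were each separate from their neighbours, and Il24 and Il6 were last and overlapped. In the A20KIKO-labelled libraries the order of the 10 means was the same. There Il6ra (14.5 ± 2.54 CPM per kb) and Il20ra (11.2 ± 0.814) no longer overlapped, Il6st stood at 8.26 ± 1.16, and Lifr (1.83 ± 0.320) and Osmr (1.72 ± 0.942) overlapped.

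Il20ra shares its chromosome with the targeted gene: it starts 697 kb after the end of Tnfaip3. Of the 16 annotated genes from Tnfaip3 to Il20ra, 5 were tested and 3 passed, Tnfaip3 and Il20ra themselves and Ifngr1, beside 3.49% of all tested genes. Tnfaip3 and Il20ra set the stretch and had already been called, so their calls say nothing about it. Of the tested genes between them Ifngr1 passed, and Il22ra2 and 9230106D20Rik did not. This stretch was looked at after its values had been seen. Ifngr1, a chain of the interferon gamma receptor, rose from 149.4 ± 13.6 to 220.1 ± 18.6 CPM (log2 0.56, SE 0.11, adjusted p = 0.0142, edgeR). Il22ra2, which encodes a soluble IL-22 binding protein, was at 21.4 ± 3.71 against 15.4 ± 2.37 CPM without overlap of the groups (log2 0.48, SE 0.16, adjusted p = 0.146). Il20ra was the only one of the tested genes of this stretch with a lower level.

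Among the 10337 genes that averaged 5 CPM or more, the 4 most like Il20ra across the 8 libraries were Tfdp2, Itih5, Slc48a1 and Xpnpep2, with Pearson r of log2 CPM of 0.988, 0.983, 0.98 and 0.978. These points share the difference between the groups. Within groups, r was 0.947, 0.921, 0.843 and 0.853 in the same order. The genes were chosen by these same libraries, so a high r within groups and a lower level in A20KIKO follow in part from the choice. Itih5 stood at 18.2 ± 1.76 against 31.6 ± 6.11 CPM and fell by 0.80 on the log2 scale (adjusted p = 0.0110, edgeR). Xpnpep2 fell by 1.30 (adjusted p = 0.00123). Tfdp2 fell by 0.50 (adjusted p = 0.0404), a call lost in 10 of 20 alternatives, and Slc48a1 had an adjusted p of 0.0696.

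The other genes of both pathways were read from 5 lists that hold 81 genes in the count data, of which 72 were tested. Of the tested genes 2 rose and 1 fell, beside 3.49% of all tested genes in either direction. These lists too were chosen with earlier results of these data known, so no excess over the shares of all genes is read from their counts. Among 13 further ligands and receptors of the IL-6 family, 9 were tested, none rose and 1 fell (2.43% and 1.06% of all tested genes). The median log2 difference of these 9 was 0.11. Of 8 further genes of the IL-10 and IL-20 family, 6 were tested and none passed in the reported edgeR fit or limma-voom. In edgeR, 4 were at an unadjusted p under 0.05 (15.4% of all tested genes). DESeq2 gave 6 of them an adjusted p and called none. Their median log2 difference was 0.56, and 0.31 without A20KIKO mouse 4. The most abundant, Il10rb, was at 0.28 (adjusted p = 0.272), and Ifnlr1, a chain of the interferon lambda receptor, at -0.14 (adjusted p = 0.756).

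Of the 12 JAK and STAT transducers, all tested, 2 rose (2.43% of all tested genes), and 1 without A20WT mouse 1 or A20WT mouse 2. One that rose in every alternative was Stat2, which carries interferon signals. It stood at 41.6 to 84.1 CPM in the A20KIKO-labelled and 13.8 to 23.2 CPM in the A20WT-labelled libraries and rose 3.21-fold (log2 1.68, SE 0.23, adjusted p = 0.00184, edgeR). Stat3, the main transducer of both families and named here after its values were seen, was at 367, 324, 370 and 579 CPM against 205, 305, 274 and 302 CPM. Its groups did not overlap, and its log2 difference was 0.59 (adjusted p = 0.127), or 0.38 without A20KIKO mouse 4 (adjusted p = 0.283). DESeq2 gave Stat3 an adjusted p of 0.0466.

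Of 24 genes that act in STAT3 feedback or as its immediate targets, 21 were tested and none passed in the reported edgeR fit. Of these, 9 were at an unadjusted p under 0.05 (15.4% of all tested genes). No gene of this list passed in limma-voom. DESeq2 gave 16 of them an adjusted p and called 2 higher, Bcl3 and Zc3h12a. In edgeR, Bcl3 and Lcn2 rose with non-robust dispersions, and Bcl3, Lcn2 and Zc3h12a with the replicate number as a block. The median log2 difference of the list was 0.31, and 0.08 without A20KIKO mouse 4. Junb (0.34, adjusted p = 0.502) and Pim3 (-0.18, adjusted p = 0.581) were the most abundant. When single mice were left out the Junb value ran from 0.06 to 0.47. Of the 25 genes that keratinocytes are known to change in response to IL-20 family cytokines, all were tested and none passed in the reported edgeR fit or limma-voom, with 8 at an unadjusted p under 0.05 in edgeR (15.4% of all tested genes). DESeq2 gave 14 of them an adjusted p, not including Lcn2, and called none. With non-robust dispersions in edgeR, 1 gene of the list rose, Lcn2, and with the replicate number as a block 2 rose, Klk6 and Lcn2. The median of the 25 genes was 1.17, and -0.06 over the 22 genes tested without A20KIKO mouse 4. In that fit Lcn2, an iron-binding antimicrobial protein on both of these lists, rose by 1.94 (adjusted p = 0.0210, edgeR), and Mmp3, a matrix protease, fell by 1.51 (adjusted p = 0.0111). The keratins and cornified envelope genes of the list that were most abundant, Krt10 (0.20) and Lor (-0.35), had adjusted p of 0.652 and 0.475. Krt5, whose promoter drives the transgene, fell by 0.83 (adjusted p = 0.00272).

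**Figure D4:**
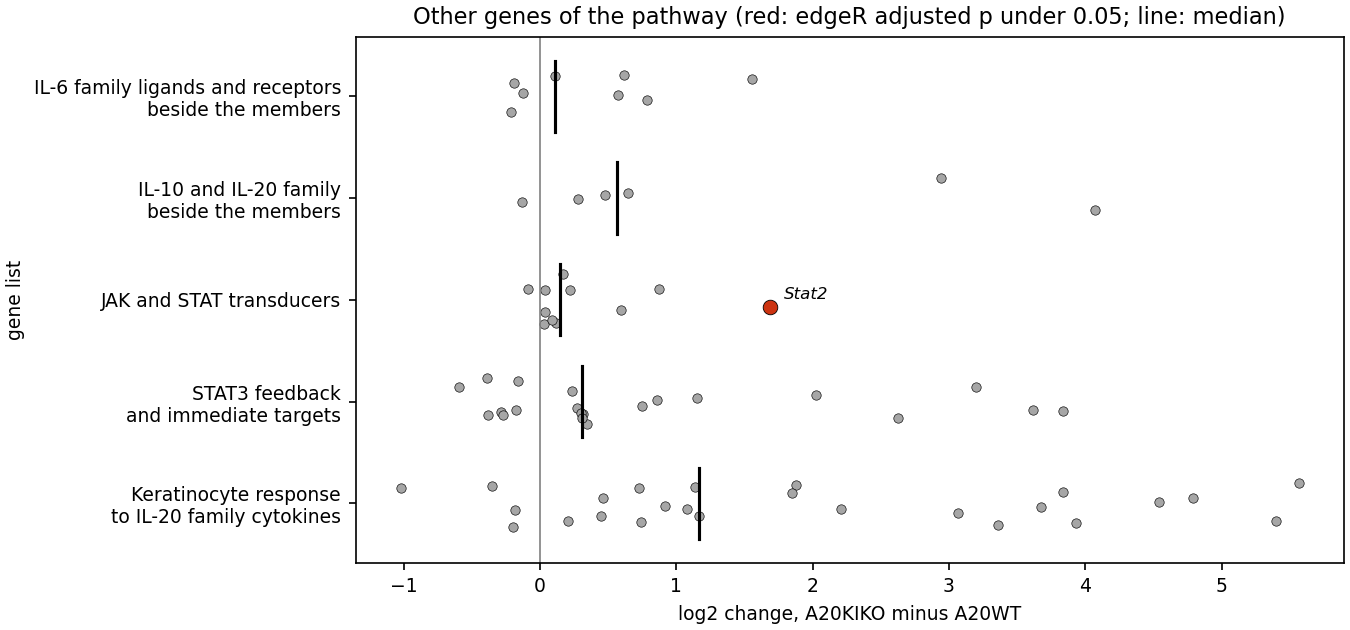
Log2 difference, A20KIKO minus A20WT, of tested genes in the 5 pathway lists, with a line at the median of each list. The red point, Stat2, passed an adjusted p under 0.05 in edgeR, and the keratinocyte response list has a median of 1.17 with none of its 25 genes passing.

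Sums of markers of other cells were compared as well. The monocyte and macrophage markers summed to 108.8 to 194.3 CPM in A20KIKO-labelled and 66.05 to 108.0 CPM in A20WT-labelled libraries. Csf1r was the largest part of the sum in every library. It stood at 72.8 to 88.4 against 39.5 to 77.9 CPM, with overlapping groups (adjusted p = 0.324, edgeR). Of 10 tested markers, 4 rose (C1qa, C1qb, C1qc and Ly6c2), beside 2.43% of all tested genes. The mast cell and basophil markers summed to 3.80 to 28.9 against 1.28 to 2.98 CPM, highest in A20KIKO mouse 4. Of the 28.9 CPM, Hdc gave 25.8, and in every other library Kit gave most of the sum. Hdc and Kit were the 2 tested, with 0 passing in edgeR and both at an unadjusted p under 0.05 (15.4% of all tested genes). Cpa3, Mcpt4, Cma1, Tpsb2 and Mcpt8 were at most 0.558 CPM in any library, and Fcer1a was at 0 in every one. The melanocyte and Schwann cell markers summed to 47.05 to 225.0 against 42.4 to 57.95 CPM. The sum of 47.05 CPM was that of A20KIKO mouse 4, inside the A20WT range. All 7 tested had a log2 difference above 0 (median 1.25), as had 8085 of all 16512 tested genes. None passed in edgeR, and 4 were at an unadjusted p under 0.05 (15.4% of all tested genes). The fibroblast markers summed to 15.5 to 37.2 against 39.9 to 55.5 CPM, with 0 of 6 tested passing in edgeR and 4 at an unadjusted p under 0.05 (15.4% of all tested genes). Dcn was the largest part of this sum in every library. It stood at 10.7 to 22.1 against 14.6 to 22.5 CPM, with overlapping groups (log2 -0.31, adjusted p = 0.552, edgeR). Of the 6 tested, 5 had a log2 difference below 0, and Pdgfrb was at 0.41. The 7 markers of suprabasal keratinocytes (29870 to 38310 against 25540 to 36840 CPM) and the 5 of Langerhans cells (1803 to 2003 against 1556 to 2073 CPM) overlapped. The part of these cells in the values of Lif, Il6st, Il6ra and Il20ra was not tested.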

How the data were processed

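The authors deposited unnormalised counts for each Ensembl mouse gene, and counts were added over the 2 lanes. Builds GRCm38.p5 and GRCh38 and the tools HTSeq 0.6.1p1, Picard 1.139 and STAR 2.4.2a appear in the submitters' processing notes. How reads were counted is not given in the sources used here. Per the labels' protocols, libraries were made with SMART-Seq v4 and Nextera kits, which keep neither strand nor molecular identifiers, so PCR copies count as separate reads. Of 51912 identifiers, 51633 matched a symbol and 51719 a GENCODE M21 position (GRCm38), which also gave exon lengths.

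Counts were tested in R 4.3.3 with edgeR 4.0.16: filterByExpr (minimum count 10, total 15), TMM scaling, robust quasi-likelihood fit with the group as only term, and two-sided tests with Benjamini-Hochberg adjustment over all 16512 tested genes, with a call at an adjusted p under 0.05. Alternatives used RLE or upper quartile factors, no filter or at least 5 CPM in 4 libraries, DESeq2 1.42.0, limma-voom 3.58.1, non-robust dispersions, a replicate block, 1 lane, an adjusted p under 0.01 and each mouse left out. Removal of the gene length trend, omission of A20WT mouse 1 with A20KIKO mouse 4, and the receptor ratios were added after seeing the data. In counts simulated for this comparison over 16512 genes, 54.5% of 66 genes changed 2-fold and 15.4% of 65 changed 1.5-fold were called, with 4 false calls among 105. The simulation changed fewer genes than were called in the real libraries and held no trend with gene length. Its shares may therefore differ from those in the real data. The members and lists were chosen with earlier results of these data known. Beside the members, up to 3 called genes of each list with the smallest adjusted p were named, or up to 2 of the most abundant where none was called. The 4 genes most like Il20ra were named too. The values of 2 genes of the lists are not reported here or drawn, and they stay in the lists' counts and medians. Promoters came from RefSeq (GRCm38.p6).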

Additional observations from a re-analysis of the deposited data

Results flagged for a closer look

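A mouse far from the others of its group was found in 8 of 58 groups of 4 examined (Dixon's test on CPM). Its chance rate of about 1 in 20 holds for independent, normally spread values. Some of these groups are counts near 0 and many share the same mice, so no excess over chance is read from the 8. In A20KIKO mouse 4, 4 ligands stood far above the other A20KIKO mice: Il24 at 1.71 CPM (others 0 to 0.105), Il19 at 23.8 (0.0173 to 0.386), Il22 at 4.49 (0 to 0.0692) and Osm at 4.47 (0.0173 to 0.417). In A20WT mouse 4, Il20 was at 0.171 CPM, above 0 to 0.0116 in the others. In A20WT mouse 1, Stat2 was at 13.8 CPM, below 22.2 to 23.2. In A20KIKO mouse 3, Krt10 was at 25220 CPM, above 17690 to 18630, and Slc48a1 at 150.1 CPM, below 170.6 to 172.8.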

How the results depend on the processing

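The number of members risen, 1 in the reported fit, was 0 with at least 5 CPM required (Lif then was not tested), with lane L001 alone, at an adjusted p under 0.01 and without both A20WT mouse 1 and A20KIKO mouse 4. It was 2 with the length trend removed (Lif, Il6st), 3 with DESeq2 (Lif, Il6st, Osmr), and 0 to 2 when single mice were left out. The number fallen, 1, was 2 with the length trend removed (Il20ra, Il6ra) and 1 in every omission of a single mouse. Context genes risen, 2, were 5 with DESeq2, 4 with non-robust dispersions, 1 without both mice and 1 to 3 without single mice. Context genes fallen, 1, were 2 without both mice and 1 to 2 without single mice. Of all genes 576 were called, 374 under the stricter filter, 1171 with DESeq2, 250 at an adjusted p under 0.01 and 348 to 619 without single mice, with the lowest counts, 348 and 355, without A20KIKO mouse 1 and A20WT mouse 3. Il22ra1 had a log2 difference of -0.064 with lane L001 alone, against 0.18, and was called in neither. Beyond fewer genes or mice entering a fit, the cause was not tested. Same-numbered mice did not deviate together (r of 0.041, 0.064, -0.014 and 0.237), and only mice 1 and 4 correlated best with their own number. With the replicate number as a block, 0 members rose, Il20ra fell, Lif had an adjusted p of 0.0724, 6 context genes rose, 1 fell, and 551 genes were called. At these depths Il6 and Il24 stayed below the filter.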
